A study of Mus musculus with 68 samples.

Results

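The Hox genes of 17 cultures of mouse long-bone mesenchymal stromal cells were described, as the 39 genes whose symbols name a member of the HoxA, HoxB, HoxC or HoxD cluster, of 27179 genes counted. HoxA held 11 of them, HoxB 10, HoxC 9 and HoxD 9. RNA was sequenced from primary cultures of 4 groups. Het 12M (n = 6) and Het 3M (n = 3) came from mice with 1 floxed Ezh2 allele and a Prrx1-driven Cre, aged 12 and 3 months. WT 12M (n = 4) and WT 3M (n = 4) came from mice with 2 intact Ezh2 alleles that carried the same Cre. The Prrx1 promoter is active in limb mesenchyme, and cells in which Cre was never active would keep both alleles. Ezh2 encodes the enzyme of Polycomb repressive complex 2 that methylates lysine 27 of histone H3. The design compared the genotypes at each age and the ages within each genotype. Cultures are named by group and S number, and the labels do not say whether each came from 1 mouse, so p-values measure the spread between cultures.

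Hox genes encode homeodomain transcription factors that give cells an address along the body and limb axes. Genes at the 3′ end of a cluster act towards the head and those at the 5′ end towards the tail and the limb tip. In the mouse limb, paralogue groups 9 and 10 pattern the upper segment, group 11 the middle segment and group 13 the hand and foot. Adult stromal and skeletal progenitor cells keep a Hox profile that reflects the place they came from. Silent Hox clusters are covered by the Polycomb mark, and Hox genes are among its best known targets.

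Promoter windows of Hoxb8, Hoxa11 and Hoxd13 are shown because the results below turn on these 3 genes. The RefSeq promoter windows (build GRCm38.p6, 250 bases before to 50 after a start site, given 5′ to 3′ on the gene's strand) have CpG dinucleotides in capitals. Hoxb8 is on chr11:96281655-96281954 (+), Hoxa11 on chr6:52245761-52246060 (-) and Hoxd13 on chr2:74667975-74668274 (+). The Hoxb8 window lies inside the longer gene model listed for Hoxb8, chr11:96279401-96285325.
Hoxb8: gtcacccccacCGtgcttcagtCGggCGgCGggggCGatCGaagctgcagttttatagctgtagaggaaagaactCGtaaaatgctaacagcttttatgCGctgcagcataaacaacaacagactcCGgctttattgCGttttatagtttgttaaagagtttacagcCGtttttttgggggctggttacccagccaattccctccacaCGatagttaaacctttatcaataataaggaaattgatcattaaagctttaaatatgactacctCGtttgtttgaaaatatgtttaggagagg
Hoxa11: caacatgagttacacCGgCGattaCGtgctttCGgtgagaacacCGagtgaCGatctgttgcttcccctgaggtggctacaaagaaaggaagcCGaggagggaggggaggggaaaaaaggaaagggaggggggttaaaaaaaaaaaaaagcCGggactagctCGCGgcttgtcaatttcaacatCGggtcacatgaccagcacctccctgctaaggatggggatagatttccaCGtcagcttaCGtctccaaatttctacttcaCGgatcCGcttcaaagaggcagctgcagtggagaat
Hoxd13: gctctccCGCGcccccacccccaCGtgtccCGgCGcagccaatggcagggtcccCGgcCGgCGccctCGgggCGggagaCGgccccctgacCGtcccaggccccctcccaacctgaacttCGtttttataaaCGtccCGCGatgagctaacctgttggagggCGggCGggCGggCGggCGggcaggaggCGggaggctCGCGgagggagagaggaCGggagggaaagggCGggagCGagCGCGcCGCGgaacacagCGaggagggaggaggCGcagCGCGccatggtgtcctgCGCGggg
The 3 windows hold 13, 15 and 37 CpG, in the order shown. Of the 39 members, 22 had a window in the table, and the first listed window of each gene was counted, with a median of 13.5 CpG and a range of 4 to 45. The median was 20 over 11316 tested genes and 7 over all 27025 genes with a window. The motif TGATNNAT, a short form of the site that HOX proteins bind together with their cofactors, was searched on both strands. It was in 3 of the 22 Hox windows (13.6%), those of Hoxa2, Hoxb1 and Hoxb8, against 4.05% of tested genes and 9.04% of all genes with a window. Hoxa10 and Hoxd11 each had a second window, and that of Hoxd11 also held the motif.

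The clusters also hold the genes of miR-196, a microRNA known to cleave the Hoxb8 transcript. The mature sequences from RefSeq have the seed, bases 2 to 8, in capitals. The first is encoded in HoxB (chr11:96265187-96265208, +) and in HoxC (chr15:102973365-102973386, +), the second in HoxA (chr6:52230129-52230150, -).
mmu-miR-196a-5p: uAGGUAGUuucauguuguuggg
mmu-miR-196b-5p: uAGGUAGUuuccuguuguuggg
Both share the seed AGGUAGU. The Hoxb8 site, read from the GENCODE transcript, is on the mRNA strand with bases paired to miR-196a by Watson-Crick rules in capitals and a G:U pair in lower case.
Hoxb8 site: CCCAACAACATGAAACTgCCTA
It paired at 21 bases by Watson-Crick rules and at 1 by a G:U pair, which lies in the seed. Of 21685 genes with an annotated 3′ UTR, 16 had a site paired at 21 or more of the 22 bases, and Hoxb8 was the 1 Hox gene among them. The perfect seed match was in 9 of 39 Hox 3′ UTRs (23.1%), among them Hoxa4, Hoxa5, Hoxa7, Hoxa9, Hoxb1, Hoxb6, Hoxb7 and Hoxc8, against 5.93% of all. The median 3′ UTR length was 969 bases in Hox genes and 920 bases in all genes. Mature microRNAs were not measured here.

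Depth ran from 13687876 to 28597221 counts per culture, and values below are CPM, read counts scaled to a common library size by the trimmed mean of M values. Of 13 stromal markers, the limb mesenchyme factor Prrx1 had 171 to 896 CPM and the collagen gene Col1a1 1504 to 13362 CPM over the cultures. Het 12M S15 had the lowest value of both. Others of the list were lower, such as Nt5e at 7.55 to 64.2 CPM and Lepr at 0.519 to 12.8 CPM. Summed macrophage markers reached 34276 CPM in Het 12M S9, against at most 2273 CPM elsewhere, and summed Schwann and neural crest markers reached 1176 CPM in WT 12M S6, against at most 111 CPM elsewhere. Chondrocyte markers summed to between 154 CPM in a Het 12M culture and 5352 CPM in WT 3M S5. Endothelial markers summed to at most 76.8 CPM, muscle markers to at most 4.31 CPM and epithelial markers to at most 0.615 CPM. Y-linked transcripts went against the labelled sex in the 4 WT 12M libraries, so the main fit had no sex term. For example, Ddx3y had 0 and 0.285 CPM in S2 and S13, labelled male, and 41.3 and 55.9 CPM in S6 and S7, labelled female. Fits with a term for the labelled sex or with a Y-linked covariate also called 0 genes in every comparison. The main fit called 0 as well, so these counts do not measure the part of sex. Of the Het cultures, Het 12M S17 and Het 3M S8 and S10 were labelled male and the others female. WT 3M S3 and S4 were labelled female and S5 and S12 male. Ddx3y had 0.0569 CPM in Het 3M S14 and 110.5 and 107 CPM in S8 and S10, so within Het 3M a difference of S14 and one of sex cannot be told apart. Het 3M S8 and S10 were the most alike pair of cultures. Their chi-square per degree of freedom was 18.5, against 40.9 for the next pair and a median of 197 over 136 pairs. The labels do not say whether they share a source, and the fit counted them as separate cultures. In such bulk samples, fewer cells of a type and less RNA per cell cannot be told apart. Ezh2 averaged 11.1 ± 2.29 CPM in Het 3M and 12.6 ± 2.32 CPM in WT 3M, a log2 difference of -0.19 ± 0.43 (SE). It averaged 17.7 ± 5.52 CPM in Het 12M and 19.8 ± 12.3 CPM in WT 12M, a log2 difference of -0.16 ± 0.36. These groups overlapped, and counts over the whole gene do not measure recombination of the floxed part.

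Of the 39 members, 35 passed the filter on low counts and were tested. Hoxb1, which patterns the hindbrain, and Hoxd12, a digit gene, had 0 counts in all 17 cultures, which allows at most 3 counts in each. That limit corresponds to 0.105 CPM in the deepest culture and 0.219 CPM in the shallowest, and covers counting error only. Hoxb13, known for its role in the prostate, had 1 count in all and Hoxd1 had 3. The members ran from the 2.14th to the 89th percentile of the tested genes by level per kb of exon, with Hoxa10 at 89 and Hoxc10 at 88.9.

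Per kb of exon, the most abundant members were Hoxa10 and 4 neighbouring genes of HoxC. The median over the 17 cultures was 29.3 CPM per kb for Hoxa10 and 28.9 CPM per kb for Hoxc10, both known for patterning the upper limb and the lumbar region. Next came Hoxc8 at 15.8, Hoxc6 at 10.6 and Hoxc9 at 8.57 CPM per kb, genes of thoracic address. The ranges of Hoxa10 (13.9 to 57) and Hoxc10 (7.6 to 58.2) overlapped almost wholly, and each member in this order overlapped the next. Hoxc13, a hair and nail gene, had a median of 4.9 CPM per kb, close to Hoxa5 at 4.69, Hoxa11 at 4.25 and Hoxd8 at 4.15 CPM per kb. The lowest of the tested members were Hoxb5 at 0.162 CPM per kb and Hoxd11 at 0.0591 CPM per kb.

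By cluster, HoxC gave a median of 51.2% of the summed Hox level per kb, HoxA 32.4%, HoxD 8.57% and HoxB 3.96%. The HoxB share was 0.258% in Het 12M S15 and 21.1% in Het 12M S11. At 12 months its median share was 8.07% in Het cultures, over a range of 0.258 to 21.1%, against 3.14% in WT cultures, over a range of 1.79 to 5.55%. At 3 months the median was 3.31% in Het cultures, over a range of 1.95 to 3.96%, against 11.2% in WT cultures, over a range of 3.58 to 13.4%. The ranges overlapped at both ages. The HoxD share was highest in Het 3M S14 at 27%, against 3.66% and 3.93% in the other Het 3M cultures.

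**Figure D1:**
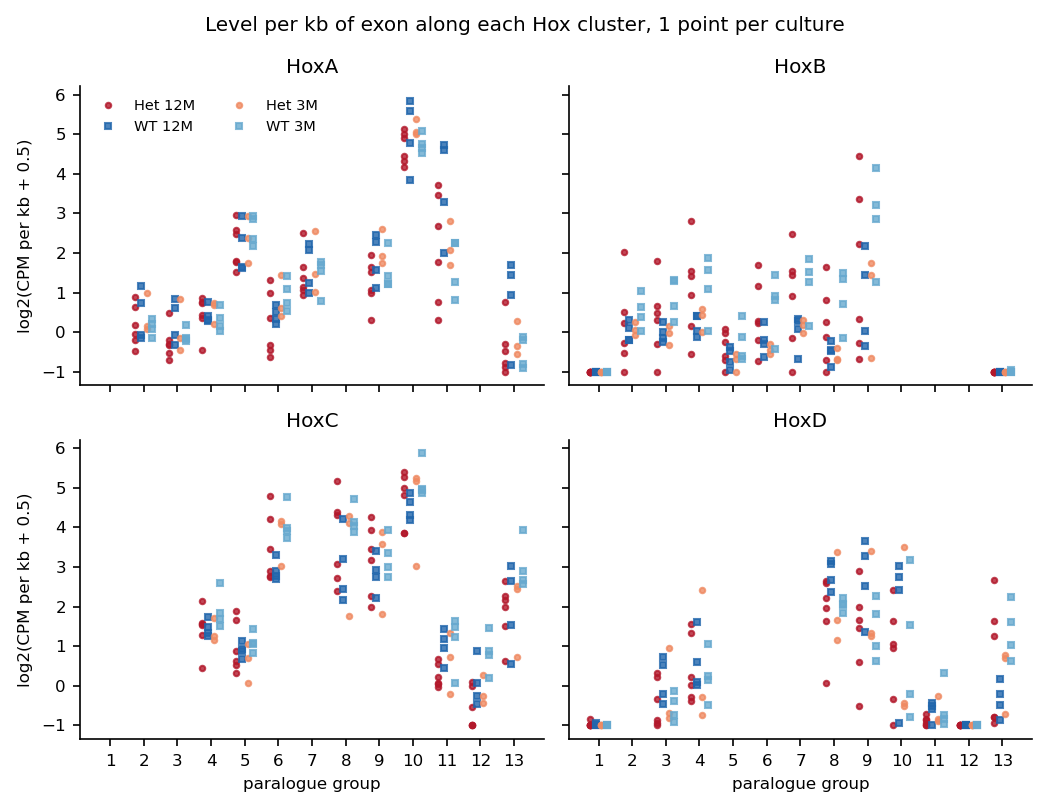
Level of Hox genes along their clusters, as log2 of CPM per kb of exon plus 0.5 (vertical axis) against paralogue group (horizontal axis), with 1 point per culture and a colour for each group. Levels peak at Hoxa10 and Hoxc10, stay near the floor at Hoxb1, Hoxb13, Hoxd1 and Hoxd12, and scatter most between cultures at Hoxb9.

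Cultures differed widely within a group, and more for some members than others. Hoxa5, a gene of lung and sternum development, varied least, with 4.43 CPM in Het 12M S1 and 13.6 CPM in Het 12M S15 as its extremes. Hoxb9, a rib patterning gene, ran from 0.327 CPM in Het 12M S15 to 55.1 CPM in Het 12M S11, a ratio of 169 within 1 group. Hoxd10, a posterior limb gene, had 0 counts in Het 12M S17 and 19.9 CPM in Het 3M S14, at least 189.7-fold higher when S17 is set to 3 counts. Het 12M S15 stood lowest for every HoxB member tested except Hoxb5, where Het 3M S10 also had 0 counts: it had 0 counts of Hoxb2, Hoxb3, Hoxb5, Hoxb7 and Hoxb8. Het 12M S11 was the highest culture for Hoxb2, Hoxb3, Hoxb4, Hoxb6, Hoxb7, Hoxb8 and Hoxb9, and also for Hoxc5, Hoxc6, Hoxc8 and Hoxd13.

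**Figure D2:**
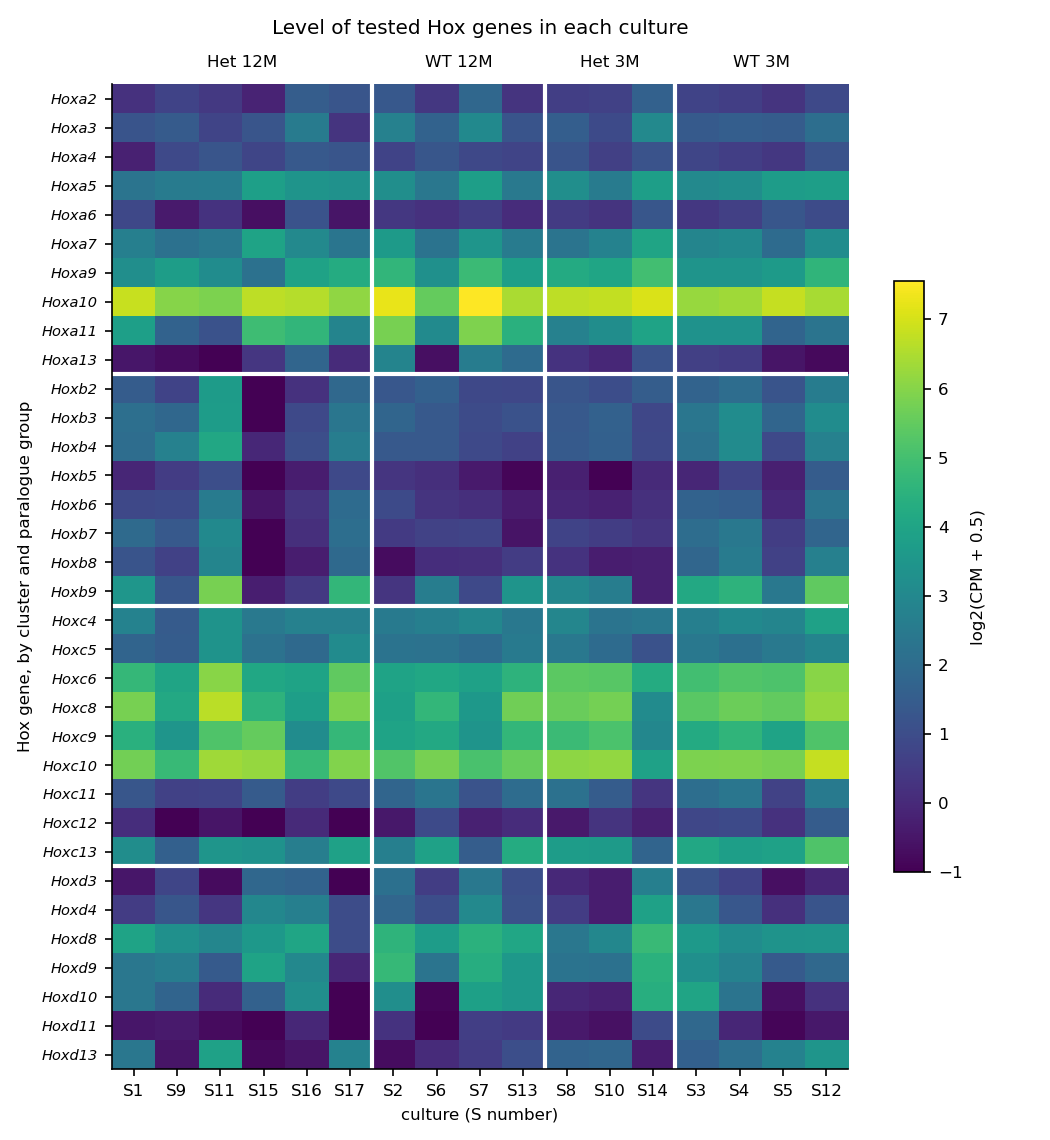
Level of tested Hox genes (rows, by cluster and paralogue group) in each culture (columns, by group), as log2 of CPM plus 0.5. Het 12M S11 and WT 3M S12 are bright across HoxB, Het 12M S15 is dark there, and WT 12M S2 and S7 and Het 3M S14 are bright across Hoxd8 to Hoxd10.

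The first comparison asked how the loss of 1 Ezh2 allele related to Hox levels in cultures from mice aged 3 months. All 8 tested HoxB genes were lower in Het 3M than in WT 3M, with a median log2 difference of -1.79. HoxC was lower at 8 of 9 genes (median -0.63), while HoxA was higher at 8 of 11 (median 0.40) and HoxD at 5 of 7 (median 0.42). Over all 35 tested members 14 were higher, with a median of -0.46, and over all genes 47.5% were higher, with a median of -0.02. No member passed the threshold of an adjusted p of 0.05 in edgeR's quasi-likelihood test, and nor did any of the 14897 genes (0% called).

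Hoxb8, a gene of thoracic identity that also acts in blood and microglial progenitors, had 0.697, 0.309 and 0.341 CPM in Het 3M S8, S10 and S14, against 3.03, 5.32, 1.06 and 6.09 CPM in WT 3M S3, S4, S5 and S12. All 3 Het cultures lay below all 4 WT cultures. The log2 difference was -3.09 ± 1.21 (SE; edgeR unadjusted p = 0.0213, adjusted p = 1). Hoxb6, its neighbour in the cluster, had 0.448, 0.361 and 0.626 CPM in Het 3M, against 2.71, 2.46, 0.481 and 4.35 CPM in WT 3M, and the groups overlapped through WT 3M S5. Its log2 difference was -2.38 ± 0.94 (edgeR adjusted p = 1). Hoxb8 and Hoxb6 were the members with an unadjusted p under 0.05, which is 2 of 35 (5.71%), against 1.6% of all genes.

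Of the 35 members, 3 had Het 3M cultures wholly below WT 3M, against 3.57% of all genes, and 0 had them wholly above, against 3.21%. Beside Hoxb8 these were Hoxb3 and Hoxc13. Hoxb3 had 2.09, 2.63 and 1.25 CPM in Het 3M and 4.63, 8.52, 2.98 and 8.38 CPM in WT 3M, and its annotated span overlaps that of Hoxb4. Hoxc13 had 12.8, 12.1 and 2.84 CPM in Het 3M and 17, 13.5, 14.5 and 36.5 CPM in WT 3M, so the gap to S8 was small. Without WT 3M S5, the culture with the most endothelial markers and the lowest Hoxb8 of its group, 9 members had Het 3M below WT 3M, and without Het 3M S8 or S14 there were 6 or 5. Endothelial markers were lower in Het 3M at 5 of 6 genes (median -0.36), and their part in this was not tested. Groups with fewer cultures separate more easily for any gene. The share of all genes was not counted with cultures left out, in this or the later comparisons, so those counts have no background beside them.

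Of the members that were higher, Hoxa9 and Hoxd4 had the smallest p. Hoxa9, which acts in limb patterning and in blood progenitors, had 18.3, 15.9 and 31 CPM in Het 3M and 10.2, 10.2, 12.1 and 23.6 CPM in WT 3M, a log2 difference of 0.63 ± 0.48 (edgeR adjusted p = 1). It was 0.285 without Het 3M S14 and 1.01 without WT 3M S12. Hoxd4, a gene of cervical identity, had 0.945, 0.309 and 14.2 CPM in Het 3M and 4.71, 2.02, 0.625 and 1.82 CPM in WT 3M. Het 3M S14 was higher than every WT culture and S10 lower than every one. The log2 difference of 1.16 ± 1.06 was 1.79 without WT 3M S3 and turned to -1.86 without Het 3M S14. Without S14, HoxD as a whole had 0 of 7 genes higher, with a median of -1.10. HoxA then had 5 of 11 higher, with a median of -0.02. HoxB still had 8 of 8 lower, with a median of -1.65. The limma voom test with sample quality weights, in which S8 weighed most, also gave 0 of 7 HoxD genes higher. It called 5 of 35 members, Hoxb8, Hoxb7, Hoxb6, Hoxc12 and Hoxd4, against 1292 of 14897 genes.

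**Figure D3:**
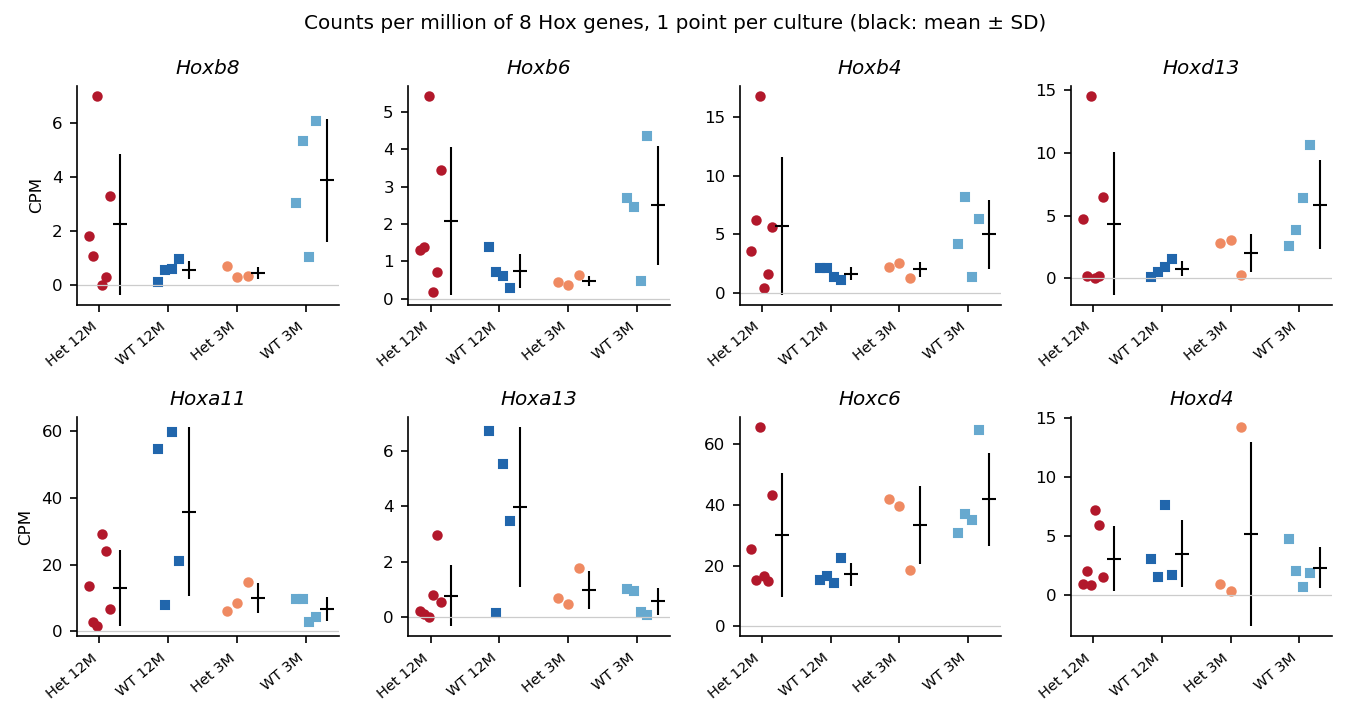
CPM (vertical axis) of 8 Hox genes in each culture of the 4 groups, with 1 point per culture and the mean ± SD in black. Hoxb8 stays under 1 CPM in all WT 12M and Het 3M cultures and lies between 1.06 and 6.09 CPM in WT 3M, while Het 12M spans 0 to 7 CPM.

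At 12 months the directions of the clusters were the other way round, though those of HoxA and HoxD at 3 months rested on Het 3M S14. All 8 tested HoxB genes were higher in Het 12M than in WT 12M, with a median log2 difference of 1.63, and HoxC was higher at 6 of 9 genes (median 0.27). HoxA was lower at 8 of 11 genes (median -0.46) and HoxD at 6 of 7 (median -1.19), with Hoxd13 as its exception. Over the 35 members 18 were higher, with a median of 0.03, against 55.7% of all genes and a median of 0.05. No member and none of the 14897 genes passed the edgeR threshold (0% called). With an unadjusted p under 0.05 there were 3 of 35 members (8.57%), Hoxb4, Hoxc11 and Hoxa13, against 8.36% of all genes.

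Hoxb4, a gene known for expanding blood stem cells, ranged from 0.458 to 16.8 CPM with a median of 4.62 in Het 12M, against 2.12, 2.11, 1.36 and 1.09 CPM in WT 12M S2, S6, S7 and S13. Of the Het cultures, S15 and S16 lay within or below the WT values. The log2 difference was 1.78 ± 0.73 (edgeR adjusted p = 0.54) and 1.05 without Het 12M S11, its highest culture. Hoxd13, the digit gene altered in human synpolydactyly, ranged from 0.0654 to 14.5 CPM with a median of 2.46 in Het 12M, against 0.115, 0.528, 0.923 and 1.57 CPM in WT 12M. Its log2 difference was 2.47 ± 1.20 (edgeR adjusted p = 0.613) and 1.57 without Het 12M S11. The Het cultures fell into 3 above every WT culture (S1, S11 and S17) and 3 at or below 0.207 CPM.

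Hoxa13, the HoxA gene of the hand and foot, ranged from 0 to 2.95 CPM with a median of 0.381 in Het 12M, against 6.72, 0.144, 5.54 and 3.47 CPM in WT 12M. Only WT 12M S6, the culture with Schwann and neural crest markers, was at the Het level, and without it the difference of -2.36 ± 1.04 (edgeR adjusted p = 0.579) was -2.76. It was -3.57 without Het 12M S16, the highest Het culture, and -1.97 without WT 12M S2. Hoxc11, a gene of the posterior limb and tail region, ranged from 0.983 to 2.22 CPM with a median of 1.23 in Het 12M, against 2.93, 4.47, 1.76 and 3.61 CPM in WT 12M. Its log2 difference was -1.14 ± 0.48 (edgeR adjusted p = 0.56). Hoxa11, the gene of the middle limb segment, ranged from 1.71 to 29.1 CPM with a median of 10.1 in Het 12M, against 54.7, 8.02, 59.7 and 21.1 CPM in WT 12M, a log2 difference of -1.47 ± 0.70 (edgeR adjusted p = 0.597). These 3 genes overlapped between the groups.

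No member had groups apart at 12 months in either direction, against 0.47% of all genes higher and 0.853% lower in Het 12M. Without Het 12M S9 and S15 and WT 12M S6, all 8 HoxB genes were still higher (median 2.02), and 3 members had Het 12M wholly below WT 12M. Without WT 12M S6 alone there were 2 such members, and without WT 12M S7 there was 1. Without Het 12M S11 alone, 7 of 8 HoxB genes were higher, with a median of 0.86, and 4 of 9 HoxC genes, with a median of -0.03. Macrophage markers were higher in Het 12M at 8 of 8 genes (median 2.03) and Schwann and neural crest markers lower at 7 of 7 (median -4.72). Their part was not tested. The fit above without S9 and S6 also left out S15, whose HoxB share was the lowest at 0.258%, so it does not measure that part. Chondrocyte markers were lower in Het 12M at 5 of 6 genes (median -1.22), and their part was not tested. The voom test called 2 of 35 members, Hoxd9 and Hoxa11, against 171 of 14897 genes. DESeq2 called 103 genes and no member.

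Between ages in WT, the question was how Hox levels differed in cultures from older mice. All 8 HoxB genes (median -1.66) and all 9 HoxC genes (median -0.72) were lower in WT 12M than in WT 3M. HoxA was higher at 8 of 11 genes (median 0.42) and HoxD at 5 of 7 (median 0.72). Of the 35 members 13 were higher, with a median of -0.60, against 53.8% of all genes and a median of 0.04. No member passed the edgeR threshold, with 0% of all genes called. An unadjusted p under 0.05 was reached by 7 of 35 members (20%), 2 higher and 5 lower, against 8.22% of all genes.

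Hoxa11 had the smallest p of the members here. It had 54.7, 8.02, 59.7 and 21.1 CPM in WT 12M and 9.72, 9.85, 2.84 and 4.35 CPM in WT 3M, a log2 difference of 2.42 ± 0.81 (edgeR unadjusted p = 0.00872, adjusted p = 0.552). The groups overlapped through WT 12M S6 alone. Reads from where Hoxa11 and its antisense gene Hoxa11os overlap cannot be told apart, since the library kit does not mark the strand. Hoxa13 had 6.72, 0.144, 5.54 and 3.47 CPM in WT 12M and 1.02, 0.936, 0.192 and 0.0791 CPM in WT 3M, a log2 difference of 2.82 ± 1.23 (edgeR adjusted p = 0.592). WT 12M S6 was again within the WT 3M range.

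Hoxc6, a thoracic gene that also acts in the mammary gland, had 15.2, 16.7, 14.3 and 22.6 CPM in WT 12M and 30.7, 36.9, 35.1 and 64.7 CPM in WT 3M. All 4 WT 12M cultures lay below all 4 WT 3M cultures, and the log2 difference was -1.28 ± 0.45 (edgeR unadjusted p = 0.0117, adjusted p = 0.567). Hoxb8 had 0.115, 0.576, 0.615 and 0.95 CPM in WT 12M, below the values of 1.06 to 6.09 CPM in WT 3M, with a log2 difference of -2.76 ± 1.06 (edgeR adjusted p = 0.579). Hoxd13 had 0.115, 0.528, 0.923 and 1.57 CPM in WT 12M and 2.58, 3.84, 6.39 and 10.6 CPM in WT 3M, with a log2 difference of -2.88 ± 1.28 (edgeR adjusted p = 0.592).

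Hoxc10 and Hoxb3 were also lower without overlap, but by narrow gaps. For Hoxc10 the highest WT 12M value was 54.6 CPM and the lowest WT 3M value 55.2 CPM, and for Hoxb3 they were 2.93 and 2.98 CPM. These 5 members make 14.3% of the tested Hox genes, against 4.07% of all genes. Hoxd8, at 23.1, 12.8, 21.6 and 16.1 CPM in WT 12M and 11.5, 8.42, 9.95 and 10.2 CPM in WT 3M, was the 1 member higher without overlap (2.86%), against 4.03% of all genes. Without WT 12M S6 there were 4 such members, and without WT 3M S5 the lower ones were 10. Without Het 12M S9, S16 or S17, or WT 3M S4 or S12, the lower ones were 3. The voom test called 6 of 35 members, Hoxc13, Hoxa3, Hoxa9, Hoxa10, Hoxa11 and Hoxa13, against 1508 of 14897 genes. DESeq2 called 46 genes and no member. Schwann and neural crest markers were higher in WT 12M at 7 of 7 genes (median 3.64), with WT 12M S6 at 1176 CPM in sum. Endothelial markers were lower in WT 12M at 6 of 6 genes (median -1.85), and their part was not tested. Without the 3 cultures that stood apart, HoxB still had 8 of 8 lower (median -1.73).

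Between ages in Het, HoxB was higher at 8 of 8 genes in Het 12M against Het 3M, with a median log2 difference of 1.56. HoxA was lower at 10 of 11 genes (median -0.34) and HoxD at 6 of 7 (median -0.77), while HoxC was divided, with 5 of 9 higher (median 0.05). Over the 35 members 15 were higher, with a median of -0.15, against 57.7% of all genes and a median of 0.07. No gene passed the edgeR threshold (0% called), and an unadjusted p under 0.05 was reached by 2 of 35 members (5.71%), against 3.28% of all genes. No member had groups apart, against 0.49% of all genes higher and 1.42% lower in Het 12M, and 1 had when Het 12M S15 or S17 or Het 3M S14 was left out. Without Het 3M S14 the directions turned for HoxD, with 6 of 7 higher (median 0.75), for HoxA, with 7 of 11 higher (median 0.20), and for HoxC, with 2 of 9 higher (median -0.39). HoxC was also lower without Het 12M S11 (median -0.14) or S15 (median -0.06). HoxB had 7 of 8 higher without Het 12M S11, with a median of 0.92. Macrophage markers were higher in Het 12M at 8 of 8 genes (median 2.68), and their part was not tested. HoxB had 8 of 8 higher (median 1.89) without the 3 cultures that stood apart, among them S15 with the lowest HoxB share. Chondrocyte markers were lower at 6 of 6 genes (median -1.67), endothelial markers at 5 of 6 (median -1.68) and Schwann and neural crest markers at 7 of 7 (median -0.54), and their part was not tested.

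Hoxb6 ranged from 0.196 to 5.43 CPM with a median of 1.35 in Het 12M, against 0.448, 0.361 and 0.626 CPM in Het 3M, a log2 difference of 2.12 ± 0.89 (edgeR adjusted p = 0.946). Only Het 12M S15 lay below the Het 3M cultures. Hoxb8 ranged from 0 to 7 CPM with a median of 1.45 in Het 12M, against 0.697, 0.309 and 0.341 CPM in Het 3M, a log2 difference of 2.31 ± 1.13 (edgeR adjusted p = 0.946) and of 1.52 without Het 12M S11. Hoxa9 ranged from 4.06 to 18.7 CPM with a median of 11 in Het 12M, against 18.3, 15.9 and 31 CPM in Het 3M, a log2 difference of -0.94 ± 0.43 (edgeR adjusted p = 0.946) and of -0.598 without Het 3M S14. Of the Het 12M cultures, S17 alone lay above any Het 3M culture, namely S8 and S10. Hoxd11, another middle segment gene, ranged from 0 to 0.466 CPM with a median of 0.158 in Het 12M, against 0.249, 0.155 and 1.42 CPM in Het 3M. Its log2 difference was -1.79 ± 1.26 (edgeR adjusted p = 0.946) and -0.24 without Het 3M S14.

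**Figure D4:**
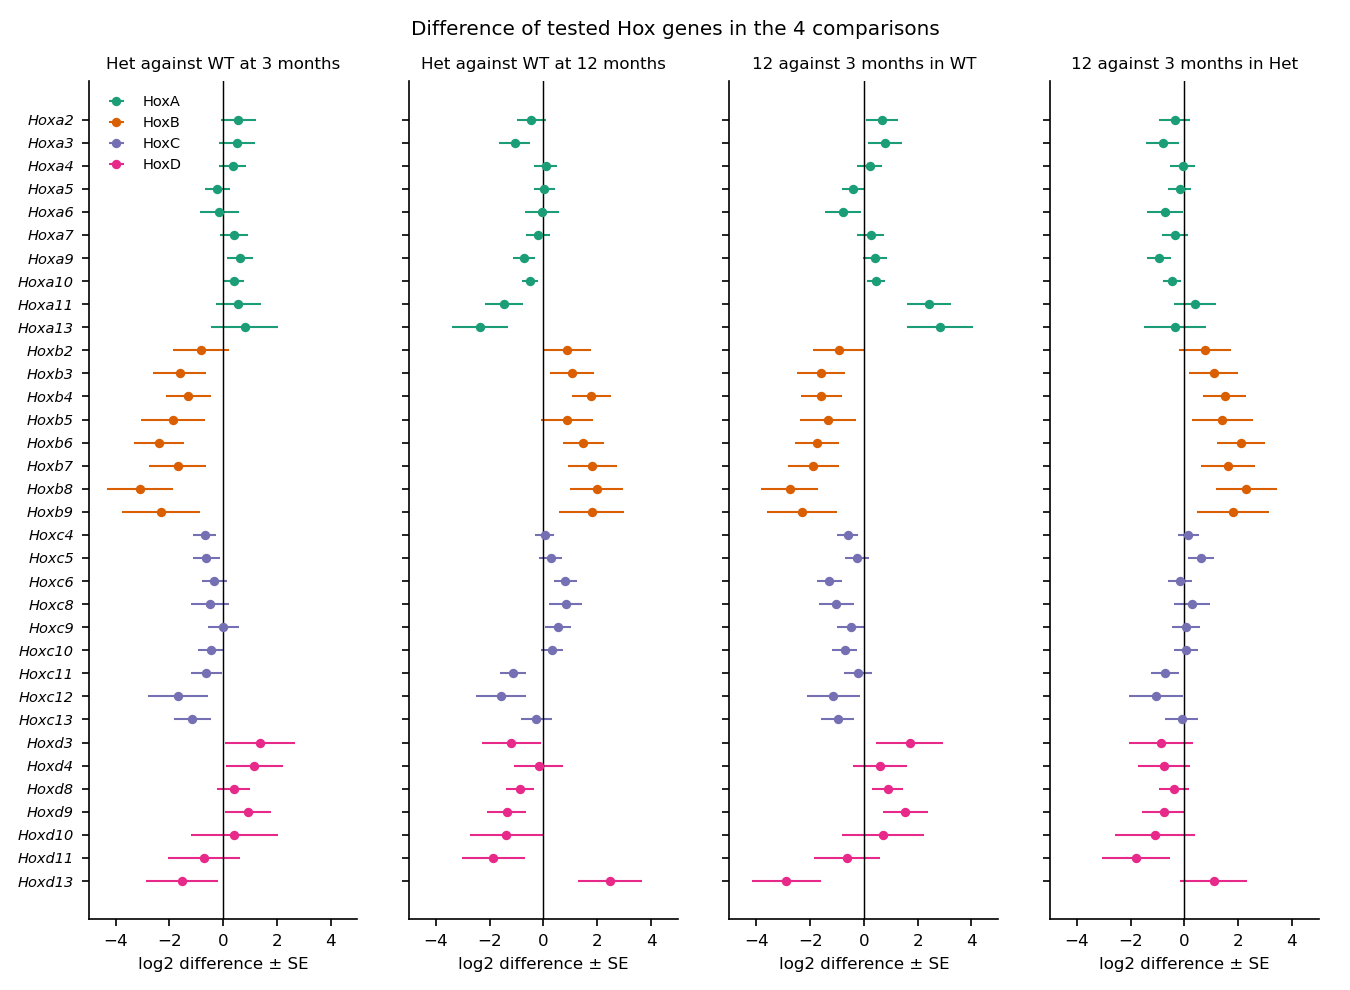
Log2 difference ± SE (horizontal axis) of tested Hox genes (vertical axis, coloured by cluster) in the 4 comparisons, from 1 edgeR fit. The 8 HoxB genes lie left of 0 in Het against WT at 3 months and in WT between ages, and right of 0 in the other 2 panels.

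The difference between the genotype effects at 12 and at 3 months was tested as an interaction. It was positive for 8 of 8 HoxB genes, with a median log2 difference of 3.29, and for 8 of 9 HoxC genes (median 0.77). It was negative for 8 of 11 HoxA genes (median -0.90) and for 6 of 7 HoxD genes (median -1.35). Of the 35 members 20 were positive, with a median of 0.24, against 56.3% of all genes and a median of 0.08. The values of this and the 4 other comparisons come from the same 17 cultures and share groups, so they are not independent of each other.

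For Hoxb8 the interaction was 5.07 ± 1.56 (edgeR unadjusted p = 0.00492, adjusted p = 0.593), and for Hoxb6 it was 3.86 ± 1.21 (edgeR adjusted p = 0.594). The most negative by p were Hoxa9 at -1.35 ± 0.63 (edgeR adjusted p = 0.855) and Hoxd9 at -2.30 ± 1.14 (edgeR adjusted p = 0.875), which was -1.05 without Het 3M S14. Hoxd13 stood apart from its cluster at 3.98 ± 1.80 (edgeR adjusted p = 0.84). An unadjusted p under 0.05 was reached by 7 of 35 members (20%), 6 positive and 1 negative, against 5.76% of all genes, and no gene was called (0%). HoxB genes varied together across cultures, with a median Pearson r of 0.86 after the group means were removed. Counts of members, here and in the other comparisons, are therefore not counts of independent observations. Leaving out any 1 culture kept the Hoxb8 interaction between 4.28 and 5.55. The HoxB median was 3.77 without Het 12M S9 and S15 and WT 12M S6. The HoxD direction rested on Het 3M S14, the only culture of its group labelled female. Without S14, 4 of 7 HoxD genes were positive, with a median of 0.39. The interaction was positive for 8 of 8 macrophage markers (median 2.20) and negative for 7 of 7 Schwann and neural crest markers (median -4.14) and 5 of 6 chondrocyte markers (median -1.23). The voom test called 7 of 35 members, Hoxb8, Hoxb7, Hoxb6, Hoxb4, Hoxa9, Hoxa10 and Hoxa11, against 939 of 14897 genes. DESeq2 called 36 genes and no member.

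Across cultures, members of 1 cluster tended to vary together. After the group means were removed, the median Pearson r between HoxB genes was 0.86 and all 28 pairs were positive. It was 0.64 within HoxC and 0.64 within HoxD, and 0.37 within HoxA. Between clusters it was -0.47 for HoxC with HoxD, -0.28 for HoxB with HoxD and 0.31 for HoxB with HoxC. For HoxA it was 0.29 with HoxD, close to the value within HoxA, -0.24 with HoxB and -0.28 with HoxC. These are descriptions over 17 libraries that share their depth, scaling and cell makeup, with no p.

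Hoxd13 varied with genes of HoxB and HoxC and not with its own cluster. After the group means were removed, its Pearson r ran from 0.36 (Hoxb5) to 0.88 (Hoxb9) with HoxB genes. With HoxC genes it ran from 0.14 (Hoxc11) to 0.93 (Hoxc6), and with the other HoxD genes from -0.83 to -0.35. On the log2 scale over the 17 cultures, Hoxd13 had a Pearson r of 0.89 (Spearman rho 0.87) with Hoxb9 and of -0.51 (rho -0.45) with Hoxd10. Hoxd10 in turn followed Hoxd9 at r = 0.82 (rho 0.84). Without the 2 cultures farthest from the median on the first gene's axis, the r of Hoxb9 with Hoxd13 was 0.85 and that of Hoxd13 with Hoxd10 -0.51. Hoxa11 and Hoxa13 were correlated at r = 0.87 (rho 0.87; 0.77 without 2 cultures). Hoxc8 followed Hoxb9 at r = 0.90 (rho 0.88; 0.89 without 2 cultures).

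Hoxa11 also followed Hand2, a factor of the posterior limb bud, at r = 0.83 (rho 0.87; 0.77 without 2 cultures). Hand2 ranged from 0 CPM in Het 12M S17 to 62.6 CPM in Het 12M S15, and was 30.8 and 38.4 CPM in WT 12M S2 and S7. Gm53, which lies in the HoxB cluster, followed Hoxb9 at r = 0.96 (rho 0.97). Factors of hindlimb and forelimb identity were both present in all 17 cultures, with 3.31 to 27.1 CPM of Tbx4, 13.7 to 238 CPM of Pitx1 and 1.24 to 29.5 CPM of Tbx5.

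**Figure D5:**
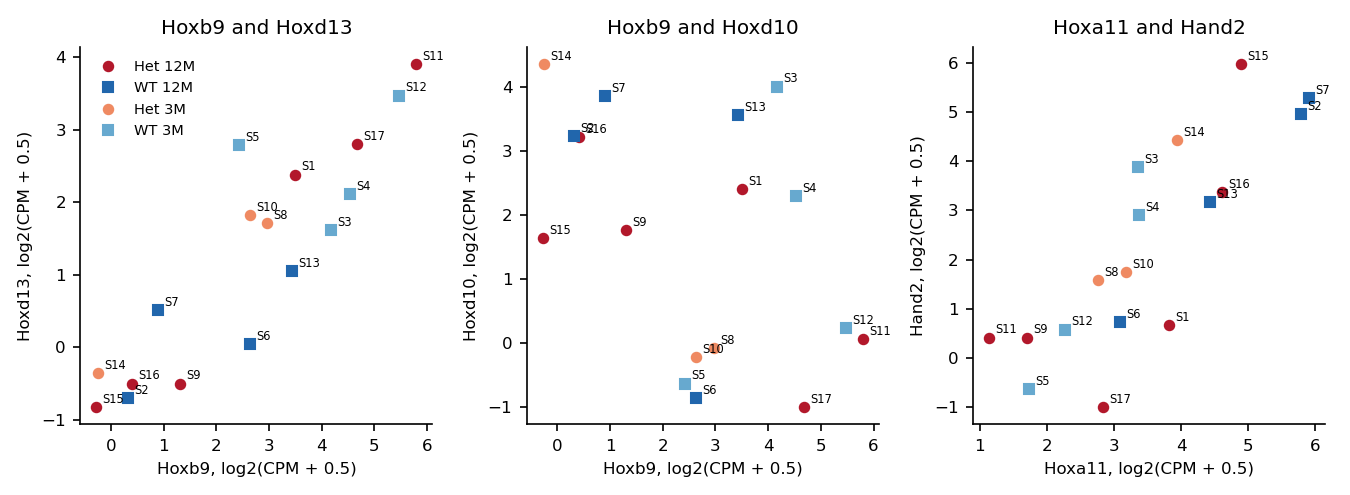
Pairs of genes over the 17 cultures, as log2 of CPM plus 0.5 on both axes, with 1 labelled point per culture and a colour for each group. Hoxd13 lies along Hoxb9 (r = 0.89), Hoxd10 does not (r = -0.45), and Hand2 lies along Hoxa11 (r = 0.83).

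Among the partners of Hox proteins, all 9 TALE homeodomain cofactors were tested and 0 passed in any comparison. Meis1, which binds DNA with HOX proteins, was the 1 gene of the list with an unadjusted p under 0.05, in 3 comparisons. It ranged from 10.2 to 16.3 CPM with a median of 13.1 in Het 12M, against 7.87, 8.93, 8.48 and 6.41 CPM in WT 12M, so the groups did not overlap. The log2 difference was 0.72 ± 0.20 (edgeR unadjusted p = 0.00196, adjusted p = 0.262). At 3 months Meis1 had 10.4, 9.02 and 10.8 CPM in Het 3M, against 14, 17.2, 11.7 and 12.8 CPM in WT 3M, again without overlap, with a log2 difference of -0.47 ± 0.23 (edgeR adjusted p = 1). Its difference between ages in WT was -0.81 ± 0.21 (edgeR adjusted p = 0.476) and its interaction 1.19 ± 0.30 (edgeR adjusted p = 0.504), in the directions of HoxB.

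Of 26 limb patterning genes 24 were tested and 0 passed. Isl1, a hindlimb bud factor, had the smallest p of the list at 12 months and between ages in WT. It ranged from 0 to 3.04 CPM in Het 12M, against 0.115, 0.0961, 0.22 and 0 CPM in WT 12M, a log2 difference of 2.92 ± 1.27 (edgeR adjusted p = 0.577). Between ages in WT its log2 difference was -3.64 ± 1.34 (edgeR adjusted p = 0.567), with 0.91 to 1.97 CPM in WT 3M. Of 33 regulators of Hox genes 30 were tested and 0 passed. Eed, a subunit of Polycomb repressive complex 2, differed by 0.49 ± 0.17 on the log2 scale in Het 12M against WT 12M (edgeR adjusted p = 0.425). Kmt2a, the Trithorax-group methyltransferase, differed by -0.76 ± 0.30 in WT 12M against WT 3M (edgeR adjusted p = 0.586).

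Genes beside and between the Hox genes were read from the same fit. The 14 other genes inside the clusters had 7 members tested and 0 passing. Gm53 differed by -2.07 ± 1.34 in Het 3M against WT 3M and by 1.17 ± 1.11 in Het 12M against WT 12M, the directions of HoxB, and Mir196a-1 reads differed by -1.55 ± 1.27 and 1.17 ± 1.04. Mir196a-1 was low, at 0 to 1.18 CPM. Of the 8 nearest protein-coding genes outside the clusters, 5 were tested and 0 passed. Evx2, a homeobox gene next to Hoxd13, had 0.149, 0.0516 and 0 CPM in Het 3M, against 0.41, 0.887, 0.24 and 0.672 CPM in WT 3M, a log2 difference of -2.90 ± 1.43 (edgeR adjusted p = 1). In WT 12M it had 0 to 0.048 CPM, and its difference from WT 3M was -4.20 ± 1.42 (edgeR unadjusted p = 0.0093). The smallest edgeR adjusted p of any gene in that comparison was 0.274. Evx2 had at most 0.887 CPM in any culture, and its WT 12M values correspond to fewer than 3 counts. Mtx2, on the other side of HoxD, was expressed at 34.8 to 64.1 CPM and differed by 0.13 ± 0.18 in Het 3M against WT 3M and by 0.37 ± 0.16 in Het 12M against WT 12M.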

How the data were processed

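RNA of 17 cultures was sequenced in 4 technical replicates each, from libraries that do not keep the strand, per the labels' protocols. The authors deposited raw read counts for 27179 genes, aligned to mm10 with Subread and counted with featureCounts, per the submitters' processing notes; the annotation and the treatment of multi-mapping reads are not given in the sources used here. Technical replicates differed by little more than sampling noise (chi-square per degree of freedom 1.02 to 1.06) and were summed. Symbols came from RefSeq GRCm38.p6 for 25275 genes; the other 1904 hold 0.573% of counts. edgeR 4.0.16 (R 4.3.3) fitted 1 term per group after TMM scaling and filterByExpr, and its quasi-likelihood test was adjusted by Benjamini-Hochberg over 14897 genes, with a threshold of 0.05, checked on simulated data. The SE beside a log2 difference is the size of that difference divided by the square root of the test's F value. Alternatives used DESeq2 1.42.0 and limma 3.58.1. Levels per kb use annotated exon length. Named in each comparison were the 2 members of smallest p in each direction, others for non-overlap or after their values were seen. The members and lists were chosen with earlier results of these data known. The series text gives 3 biological samples a group, while the labels give 6, 4, 3 and 4. Values of 1 member and of 2 listed genes are not reported here.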

Additional observations from a re-analysis of the deposited data

Results flagged for a closer look

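In groups of 4 to 6 cultures, 51 sets of values were examined for a culture far from the rest, and 6 had one. The cutoff gives about 1 in 20 by chance for independent, normally distributed values. CPM values need not be normal and Hox genes vary together, so the count of 6 cannot be set against that rate. In Het 12M, Hoxa13 was high in S16 at 2.95 CPM, against at most 0.785 CPM in the other 5 cultures, and Hoxb4 was high in S11 at 16.8 CPM, against at most 6.22 CPM. In WT 3M, S12 was high for Hoxa9 at 23.6 CPM, against at most 12.1 CPM, and for the summed HoxC level at 153 CPM per kb, against at most 86.7 CPM per kb. The same culture was low for Ezh2 at 9.17 CPM, against at least 13.4 CPM in the other 3. Hoxd11 was high in WT 3M S3 at 3.2 CPM, against at most 0.443 CPM.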

How the results depend on the processing

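Of 29 alternatives, the test used moved the counts of genes past the threshold most. Voom with sample weights, which ran from 0.118 to 8.88, called 1292, 171, 1508, 1 and 939 of 14897 genes (3 months, 12 months, WT ages, Het ages, interaction). It called 5, 2, 6, 0 and 7 of 35 Hox genes. DESeq2 called 0, 103, 46, 1 and 36 genes and no Hox gene; edgeR called 0 in all 5. Hoxd4 at 3 months turned to -2.04 with voom and -1.86 without Het 3M S14, within a range of -1.86 to 1.79 when 1 culture was left out. Without Het 12M S9, S15 and WT 12M S6, 2 genes were called between WT ages, and non-overlapping Hox genes were 3 lower at 12 months, 4 higher between WT ages and 1 higher between Het ages. At 3 months 1 Hox gene was higher without overlap with library totals or technical replicate 1 alone, and 5 were lower with Het 3M S8 and S10 summed, a setting chosen after seeing the data. Between WT ages the lower ones were 2, 3 and 3 in those settings. With technical replicate 1 alone the interaction median was 0.636. Leaving out 1 culture gave non-overlapping Hox genes of 0 to 1 higher and 3 to 9 lower at 3 months, 0 to 2 lower at 12 months, 1 to 4 higher and 3 to 10 lower between WT ages, and 0 to 1 higher and 0 to 1 lower between Het ages. It gave 0 to 2 genes called at 12 months and 0 to 1 between WT ages, and Het age medians of -0.238 to 0.309. The share of all genes without overlap was counted in the main setting only. No paired analysis was possible because the numbers shared between groups mark technical replicates.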
